A study of Mus musculus with 31 samples.

Results

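Transcripts of 41 genes of glycolysis and of the response to hypoxia-inducible factors (HIFs) were followed in mouse natural killer (NK) cells, which are cytotoxic lymphocytes of the innate immune system. The genes were taken from a list of symbols, of which all 41 were found among the 27179 genes of the count table, 1 of them (Ero1l) through a synonym. The series crossed 3 genotypes with 3 conditions in 31 RNA-seq libraries. The genotypes were WT, TGFBRII_KO (which by label has no TGF-β receptor II, the chain that binds the ligand) and CIS_KO (knockout of CIS, a suppressor of cytokine signalling). Cells were either left unstimulated or given TGFB1, the TGF-β1 cytokine, for 4 h or for 24 h. Unstimulated cells gave 4 WT, 3 TGFBRII_KO and 4 CIS_KO libraries, the 4 h time gave 2, 3 and 4, and the 24 h time gave 4, 3 and 4. Any Cre line or clone, the age of the mice, the organ and the culture medium were not given in the sources used here. Cells kept for the same time without TGFB1 were not analysed here, so every response below holds the effect of TGFB1 and of time in culture together. The labels call replicates biological without saying that they came from separate mice, so p-values measure the spread between these libraries, which may be technical.

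Glycolysis breaks glucose down to pyruvate, which lactate dehydrogenase turns into lactate when the flow into mitochondria is limited. HIF-1 is a pair of proteins, HIF-1α and ARNT. Prolyl hydroxylases (the Egln genes) use oxygen to mark HIF-1α for destruction through the VHL ubiquitin ligase, so the protein builds up when oxygen is short, and HIF-1 then switches on glucose transporters, glycolytic enzymes and genes that lower mitochondrial oxygen use. Cytokine signals can raise HIF-1α in lymphocytes even with oxygen present. Activated NK cells take up more glucose, and TGF-β is known to restrain their metabolism.

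HIF-1 binds DNA at a short core, RCGTG, where R is A or G. Promoters of 36 of the 41 members, each 250 bases before to 50 bases after the first listed start site, were in the RefSeq table for GRCm38.p6 (the mm10 assembly). The core, searched as ACGTG or GCGTG on both strands, lay in 27 of these 36 (75.0%) and in 11836 of 27025 promoters of all genes (43.8%). ACGTG alone lay in 20 of 36 (55.6%) and in 19.7% of all promoters. A match is a description of the letters, not a bound site. The promoters of the 4 members that were higher at 4 h in all 3 genotypes are shown 5′ to 3′ on the strand of the gene, with the cores in capitals and positions counted from the start site.
Pfkfb3 promoter (chr2:11553880-11554179, minus strand, ACGTG at -60): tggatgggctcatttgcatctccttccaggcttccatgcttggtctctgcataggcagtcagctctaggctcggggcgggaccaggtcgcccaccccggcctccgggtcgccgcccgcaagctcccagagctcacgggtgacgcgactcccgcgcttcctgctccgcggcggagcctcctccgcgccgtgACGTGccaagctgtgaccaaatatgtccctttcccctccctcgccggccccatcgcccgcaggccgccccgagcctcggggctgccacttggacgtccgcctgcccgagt
Ankrd37 promoter (chr8:45999801-46000100, minus strand, ACGTG at -241 and -6, GCGTG at -152 and, overlapping it on the opposite strand, at -155): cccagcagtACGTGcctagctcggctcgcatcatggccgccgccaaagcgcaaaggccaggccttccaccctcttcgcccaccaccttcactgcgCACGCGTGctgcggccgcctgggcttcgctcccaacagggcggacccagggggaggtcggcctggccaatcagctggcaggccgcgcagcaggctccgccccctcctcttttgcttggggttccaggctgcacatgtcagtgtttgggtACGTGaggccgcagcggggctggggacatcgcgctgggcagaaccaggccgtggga
Kdm3a promoter (chr6:71632868-71633167, minus strand, GCGTG at -27): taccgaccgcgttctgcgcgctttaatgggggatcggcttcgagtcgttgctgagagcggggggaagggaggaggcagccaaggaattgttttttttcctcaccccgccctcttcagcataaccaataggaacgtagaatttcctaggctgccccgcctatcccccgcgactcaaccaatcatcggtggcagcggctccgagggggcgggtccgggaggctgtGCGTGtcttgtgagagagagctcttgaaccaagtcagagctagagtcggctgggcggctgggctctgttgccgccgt
Vegfa promoter (chr17:46032328-46032627, minus strand, no core in this window): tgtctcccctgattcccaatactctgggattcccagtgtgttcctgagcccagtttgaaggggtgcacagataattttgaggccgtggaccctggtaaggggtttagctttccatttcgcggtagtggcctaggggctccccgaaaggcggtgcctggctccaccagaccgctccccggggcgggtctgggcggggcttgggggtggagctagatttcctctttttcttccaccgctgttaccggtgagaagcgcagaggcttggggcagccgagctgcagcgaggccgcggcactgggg
The core was found 4 times in the Ankrd37 window, 1 time in each of those of Pfkfb3 and Kdm3a, and 0 times in that of Vegfa. Vegfa and Pfkfb3 have 2 listed starts and Kdm3a has 3, and only the first of each was searched.

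Library totals ran from 297561 to 1403005 counts, with a median of 736193. The TGFBRII_KO libraries were even in depth (701095 to 862331), whereas WT ran from 297561 to 1135104 and unstimulated CIS_KO from 392266 to 711659 against 712432 to 1135104 in unstimulated WT. Cish stood at 18.0 to 33.4 CPM (counts scaled to a common library size, here with TMM factors) in unstimulated CIS_KO libraries and at 130 to 175 CPM in WT. Tgfbr2 stood at 221 to 237 CPM in unstimulated TGFBRII_KO and at 189 to 250 CPM in WT; whole-gene counts keep reads from outside a deleted part, so this checks nothing. All 9 NK markers were found, with summed levels of 2330 to 4990 CPM. B cell markers summed to at most 4.99 CPM (Ms4a1 and Pax5 at 0) and erythroid markers to at most 2.06 CPM (Hbb-bs, Hba-a1 and Hba-a2 at 0). Xist, the RNA that coats the silenced X, was at 91.1 to 222 CPM in WT libraries. Its level was 12.6 to 131 CPM in TGFBRII_KO and 0 to 5.22 CPM in CIS_KO. The Y-linked genes Ddx3y, Eif2s3y, Uty and Kdm5d were summed in unstimulated libraries. The sum was 1.38 to 91.1 CPM in WT, 187 to 388 CPM in TGFBRII_KO and 419 to 473 CPM in CIS_KO. Unstimulated WT and TGFBRII_KO libraries thus held both Xist and Y-linked transcripts, in amounts that varied within a genotype. The Y-linked ranges of the genotypes did not overlap, so sex and genotype cannot be told apart.

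Per kilobase of exon, Fam162a was the most abundant member (216 CPM per kb over the 9 groups), followed by Ldha (126), Aldoa (118), Tpi1 (83.9) and Pkm (83.0). Fam162a encodes a mitochondrial protein, and the other 4 are glycolytic enzymes. Slc2a1, the glucose transporter GLUT1, had 0 to 6 counts per library and the neuronal enolase Eno2 had 0 to 1, and neither passed the filter on low counts. The remaining 39 members were tested among 10275 genes. Slc2a3, the glucose transporter GLUT3, stood at 28.1 CPM per kb against 0.640 for Slc2a1. The ratio of the highest to the lowest group mean ran from 1.39 for Vhl to 7.52 for Ankrd37 among the members tested. Enzymes with near-identical copies in the genome, such as Pgk1, Pgam1, Eno1, Aldoa, Tpi1 and Ldha, are uncertain here because the handling of shared reads was not given in the sources used here. Gapdh, not a member, had 0 to 8 counts per library.

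Counts of several glycolytic enzymes did not keep pace with library depth. A gene counted in proportion to depth has a slope of 1 when log2 count is set against log2 library total within groups, and the median over all 10275 genes was 1.18. The 5 tested enzymes of lower glycolysis, from phosphoglycerate kinase to lactate dehydrogenase, had a median slope of 0.29, with 0.26 for Pkm, 0.29 for Pgk1 and Eno1, and 0.35 for Ldha. In upper glycolysis, from hexokinase to triosephosphate isomerase, Aldoa and Gpi1 had slopes of 0.28 and 0.42. Low slopes did not follow abundance alone. Pgk1 and Eno1 had median counts of only 38 and 57, and Fam162a, the most abundant member per kilobase, had a slope of 0.79. HIF targets outside glycolysis followed depth, with medians of 1.03 for the mitochondrial and 1.40 for the secretory and collagen targets. The shallowest library therefore reads high in CPM for the enzymes with low slopes: Aldoa stood at 774 CPM in the WT 4 h library of 297561 counts and at 419.6 CPM in the other, and its raw counts in the 31 libraries spanned only 206 to 391. Members with slopes well above 1 can read low in that library: Hk2 stood at 33.8 CPM there and at 168 in the other WT 4 h library. Values with depth as a covariate in the model are given beside the main differences of the low-slope enzymes. For members with high slopes they are given in few places.

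**Figure D1:**
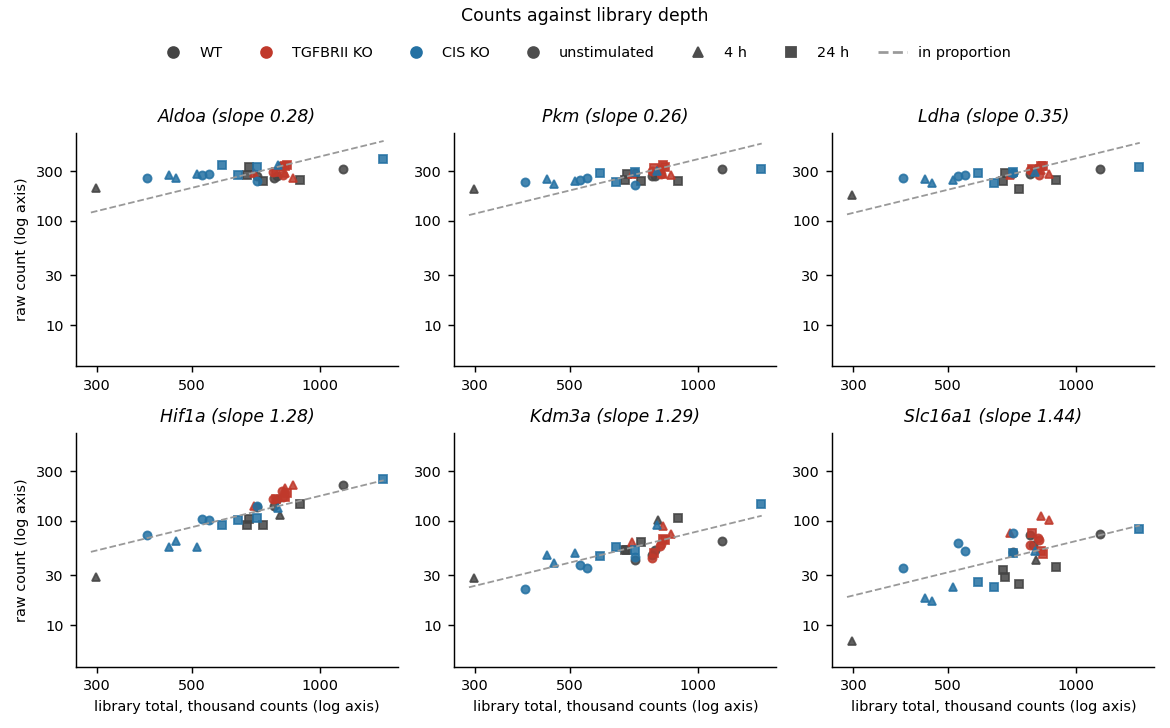
Raw count (vertical log axis) against library total (horizontal log axis) for 6 members, with 1 point per library, coloured by genotype and shaped by condition; dashed lines show counts in proportion to depth. Aldoa, Pkm and Ldha lie along a flatter course (slopes 0.28, 0.26 and 0.35) than Hif1a, Kdm3a and Slc16a1 (1.28, 1.29 and 1.44).

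At 4 h, 4 members were called higher than in unstimulated cells in each genotype: Ankrd37, Vegfa, Pfkfb3 and Kdm3a. Without WT 4 h replicate 4, which left 1 WT library at 4 h, their WT log2 changes were 0.54, 0.12, 0.18 and 0.84. The TGFBRII_KO call of Kdm3a was lost under 7 of 13 alternative settings. The 4 members make up 10.3% of the 39 tested, against 33 of 10275 genes (0.321%) called higher in all 3 genotypes. The list was chosen with earlier results of these data known, so this share and those below describe the list and do not test it. In WT, 8 of 39 members rose and 1 fell (23.1%), against 11.9% of all genes. In TGFBRII_KO, which lacks the receptor for the added cytokine by label, 7 rose and 1 fell (20.5%, against 8.02% of all genes), and in CIS_KO 5 rose and 3 fell (20.5%, against 14.1%). The median log2 change of the 39 was 0.24, 0.01 and 0.10, beside -0.02, -0.01 and 0.00 over all genes. Calls are at an adjusted p under 0.05 in edgeR's quasi-likelihood test, adjusted by Benjamini-Hochberg across the 10275 genes, and log2 changes are given with their standard errors. Scaled by library size alone, which moved the WT 4 h median of all genes to -0.11, the WT split was 6 higher and 5 lower.

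**Figure D2:**
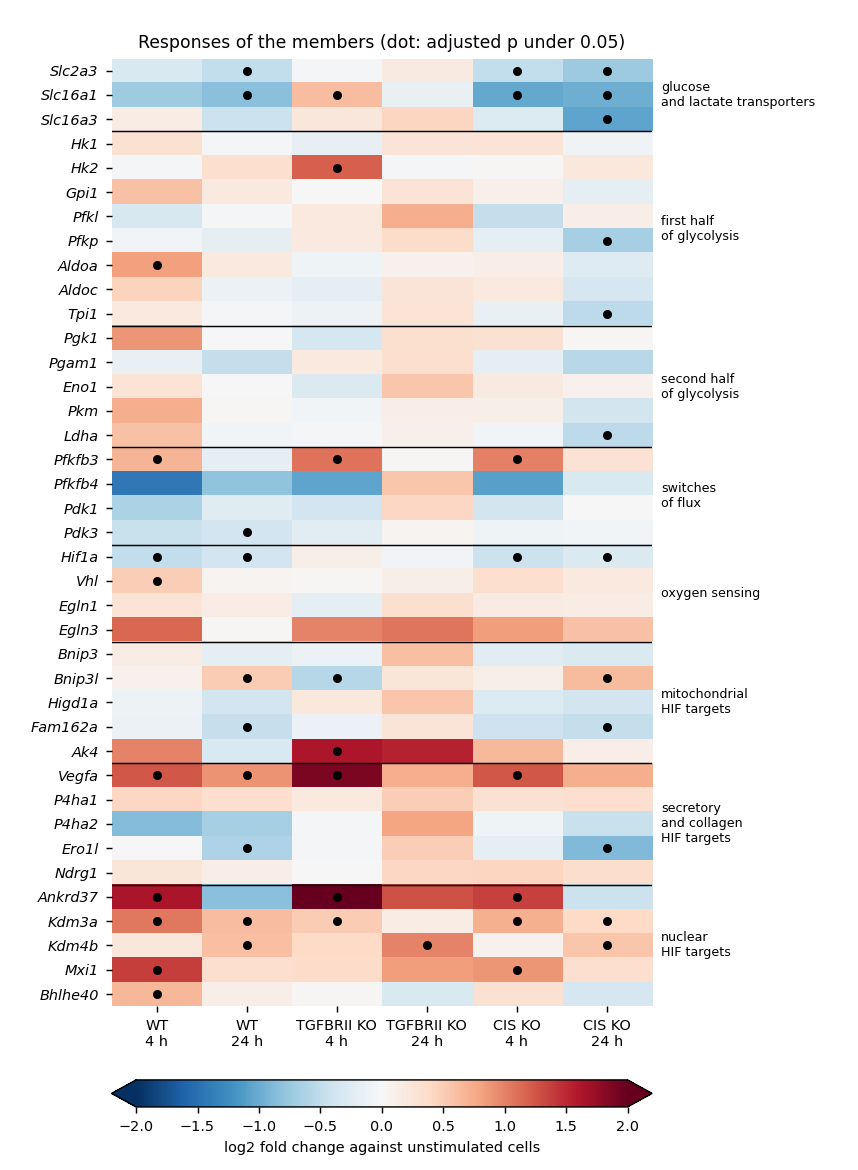
Log2 fold change against unstimulated cells (colour) of the 39 members tested (rows, grouped by role) in each genotype and time (columns); a dot marks an adjusted p under 0.05. Ankrd37, Vegfa, Pfkfb3 and Kdm3a carry a dot at 4 h in all 3 genotypes, and 35 of 39 members are above 0 in TGFBRII_KO at 24 h.

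Summed T cell markers moved in the same comparisons: all 7 were found in these sorted cells, and the sum was 336 to 383, 429 to 443 and 293 to 347 CPM in unstimulated WT, TGFBRII_KO and CIS_KO against 235 to 263, 252 to 304 and 193 to 286 CPM at 4 h. Cd3d, Cd3g and Bcl11b made up most of this sum, while Cd4 and Cd8a had 0 to 2 counts per library and Cd5 had 0 to 1. The myeloid list (6 of 6 found, S100a9 at 0) rested on Cd14, at 5 to 31 counts per library, and the other 5 had at most 2; its sum was 9.99 to 21.6 CPM in unstimulated WT and 28.8 to 33.8 CPM at 4 h. The part of either in the 4 h results was not tested. In bulk RNA, fewer cells of a type and less RNA per cell cannot be told apart.

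Ankrd37, an ankyrin repeat protein that is a direct HIF-1 target (Entrez 654824, chromosome 8, 45996908 to 46000414; coordinates are mm10 throughout), changed most. In WT it stood at 24.1, 33.7, 39.4 and 34.5 CPM in unstimulated libraries, 48.9 and 132 at 4 h and 6.71, 16.2, 17.9 and 35.6 at 24 h. The TGFBRII_KO values were 30.4, 44.6 and 15.8, then 163, 137 and 132, then 95.0, 80.4 and 44.1 CPM. The CIS_KO values were 41.4, 42.7, 53.0 and 36.1, then 116, 76.1, 129.7 and 114, then 35.4, 34.4, 28.1 and 26.1 CPM. Every 4 h library was above every unstimulated library of its genotype. The log2 change at 4 h was 1.64 ± 0.32 (adjusted p = 0.00049) in WT, 2.24 ± 0.28 (adjusted p = 7.3e-06) in TGFBRII_KO and 1.36 ± 0.28 (adjusted p = 0.00063) in CIS_KO. From 4 h to 24 h it fell in each genotype, by 2.48, 0.97 and 1.79 on the log2 scale. In TGFBRII_KO, 2 of the 3 libraries at 24 h were above all unstimulated ones and 1 was just below the highest of them (1.27 ± 0.31, adjusted p = 0.29).

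Kdm3a and Mxi1 rose beside it. Kdm3a (Entrez 104263, chromosome 6, 71588970 to 71632990) encodes a histone H3 lysine demethylase that needs oxygen. It stood at 59.7, 64.9, 53.6 and 58.0 CPM in unstimulated WT, 105 and 129 at 4 h and 84.6, 116, 77.5 and 78.6 at 24 h, with no overlap between unstimulated and treated libraries. The change at 4 h was 1.05 ± 0.17 (adjusted p = 4.3e-05) in WT, 0.51 ± 0.15 (adjusted p = 0.032) in TGFBRII_KO and 0.71 ± 0.15 (adjusted p = 0.00099) in CIS_KO. The TGFBRII_KO call was lost under 7 of 13 alternatives, at adjusted p up to 0.16. At 24 h the change was 0.62 ± 0.14 (adjusted p = 0.00075) in WT and 0.40 ± 0.15 (adjusted p = 0.046) in CIS_KO, the latter 0.26 (adjusted p = 0.29) with depth as a covariate. In TGFBRII_KO at 24 h it was 0.15 ± 0.16 (adjusted p = 0.96). Mxi1 (Entrez 17859, chromosome 19, 53310128 to 53373293) encodes an antagonist of MYC. It went from 36.9, 31.2, 45.3 and 42.8 CPM in unstimulated WT to 56.4 and 126 at 4 h, a change of 1.39 ± 0.24 (adjusted p = 8.6e-05), and in CIS_KO from 63.5, 44.5, 55.0 and 33.3 to 103, 76.1, 72.0 and 86.5, a change of 0.88 ± 0.22 (adjusted p = 0.0045). The TGFBRII_KO libraries held 36.7, 51.8 and 32.8 CPM unstimulated, then 56.6, 53.3 and 46.9, then 62.9, 77.9 and 77.4, with 0.36 ± 0.24 (adjusted p = 0.41) at 4 h.

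The 2 WT libraries at 4 h differed from each other in these genes. The shallow one (replicate 1, 297561 counts) held 48.9 CPM of Ankrd37, 33.8 of Vegfa and 56.4 of Mxi1, and the other (replicate 4, 806473 counts) held 132 CPM of Ankrd37, 91.4 of Vegfa and 126 of Mxi1. Without replicate 4, the WT calls of Ankrd37 (log2 change 0.54), Vegfa (0.12), Mxi1 (0.51), Pfkfb3 (0.18), Kdm3a (0.84), Bhlhe40 (0.84) and Vhl (0.32) were lost. Without replicate 1, those of Aldoa (0.36), Hif1a (-0.39), Vhl (0.56) and Bhlhe40 (0.53) were lost. The 4 h changes of Ankrd37, Vegfa, Pfkfb3, Hk2 and Ak4 in TGFBRII_KO and of Ankrd37, Vegfa, Pfkfb3, Kdm3a and Mxi1 in CIS_KO were called under each alternative run.

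Kdm4b and Bhlhe40 followed other courses. Kdm4b, another oxygen-dependent histone demethylase (Entrez 193796, chromosome 17, 56325970 to 56403774), went from 31.8, 32.5, 46.9 and 33.1 CPM in unstimulated WT to 64.5, 51.8, 44.7 and 63.8 at 24 h. In TGFBRII_KO it went from 35.5, 30.1 and 40.1 to 60.5, 76.6 and 73.8 CPM, and in CIS_KO from 44.2, 40.8, 43.2 and 33.3 to 62.3, 56.6, 53.0 and 60.9 CPM. The WT ranges overlapped through replicate 3 of the unstimulated libraries, and the knockout ranges did not. The 24 h change was 0.60 ± 0.17 (adjusted p = 0.0074) in WT, 0.99 ± 0.19 (adjusted p = 0.032) in TGFBRII_KO and 0.55 ± 0.18 (adjusted p = 0.024) in CIS_KO. With depth as a covariate the CIS_KO change was 0.48 (adjusted p = 0.093). Bhlhe40, a transcription factor that shapes cytokine output of lymphocytes (Entrez 20893, chromosome 6, 108660629 to 108666925), was at 235, 167, 160.1 and 177 CPM in unstimulated WT and 331 and 268 at 4 h, a change of 0.67 ± 0.20 (adjusted p = 0.026), or 0.52 (adjusted p = 0.079) with the depth covariate. In CIS_KO it fell from 326, 330.4, 354 and 331 CPM at 4 h to 253, 189, 219.9 and 212 at 24 h, by 0.63 on the log2 scale (adjusted p = 0.0073), with no overlap.

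**Figure D3:**
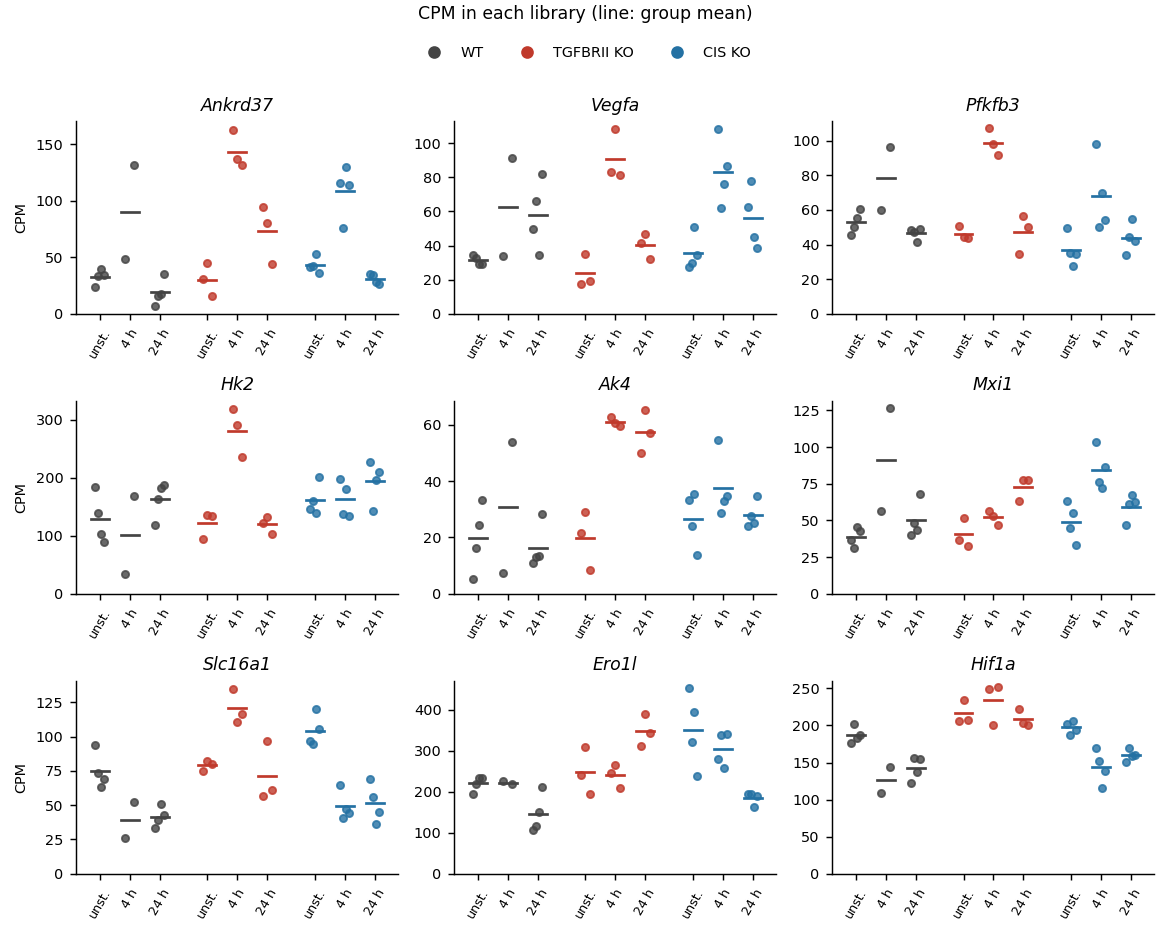
CPM of 9 members in each library (points; vertical axis from 0), with the group mean as a line, by condition (horizontal axis) and genotype (colour). The group means of Ankrd37, Vegfa and Pfkfb3 are raised at 4 h in each genotype, with the WT libraries far apart. Hk2 is raised at 4 h in TGFBRII_KO (236 to 318 CPM), and Slc16a1 lies lower at both times in WT and CIS_KO.

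Among the secretory and collagen targets, Vegfa rose at 4 h in each genotype. It encodes a growth factor for blood vessels and a classic HIF-1 target (Entrez 22339, chromosome 17, 46016993 to 46032377). In WT it stood at 34.3, 32.5, 29.3 and 29.0 CPM, then 33.8 and 91.4 at 4 h and 49.7, 65.8, 34.3 and 81.6 at 24 h. The TGFBRII_KO values were 17.7, 35.0 and 19.4 CPM unstimulated, 83.1, 108 and 81.2 at 4 h and 41.5, 46.5 and 32.1 at 24 h. In CIS_KO the 3 conditions gave 27.6, 29.7, 51.0 and 34.7, then 108, 61.8, 76.2 and 86.5, then 62.3, 77.5, 45.2 and 38.3 CPM. The 4 h and unstimulated libraries did not overlap in either knockout, and in WT replicate 1 at 4 h lay within the unstimulated range. The 4 h changes were 1.24 ± 0.32 (adjusted p = 0.0096), 1.89 ± 0.29 (adjusted p = 7.3e-05) and 1.24 ± 0.28 (adjusted p = 0.0015) in WT, TGFBRII_KO and CIS_KO. At 24 h they were 0.90 ± 0.26 (adjusted p = 0.010), 0.72 ± 0.34 (adjusted p = 0.65) and 0.72 ± 0.28 (adjusted p = 0.056); without the WT 24 h replicate 4 the WT call was lost.

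Ero1l, the endoplasmic reticulum oxidase that makes disulfide bonds (Entrez 50527, chromosome 14, 45283087 to 45318572), fell at 24 h in WT and CIS_KO. WT libraries went from 194, 219.7, 233 and 235 CPM unstimulated to 226 and 219 at 4 h and 106, 116, 150.5 and 211 at 24 h. CIS_KO libraries went from 453, 321, 395 and 239, to 280.2, 338, 259 and 341, to 195, 194, 164 and 189.8 CPM. TGFBRII_KO libraries held 241, 308 and 194, then 247, 266 and 210.3, then 311, 391 and 344 CPM. Every TGFBRII_KO library at 24 h lay above its unstimulated libraries, and every CIS_KO library at 24 h lay below. The 24 h change was -0.61 ± 0.17 (adjusted p = 0.0084) in WT, -0.89 ± 0.17 (adjusted p = 0.00017) in CIS_KO and 0.49 ± 0.18 (adjusted p = 0.52) in TGFBRII_KO. Leaving out WT 24 h replicate 1 ended the WT call, at an adjusted p of 0.054. P4ha1 and P4ha2, collagen prolyl hydroxylases, were not called against unstimulated cells in any genotype; P4ha2 stood at 49.9, 65.3 and 61.9 CPM in TGFBRII_KO at 24 h, above each of its unstimulated libraries (20.7 to 42.2) and 4 h libraries (29.7 to 41.8). Ndrg1, a stress-responsive gene, was likewise not called. It held 133, 137 and 111 CPM in unstimulated TGFBRII_KO and 158, 175 and 177 at 24 h, without overlap (0.42 ± 0.15, adjusted p = 0.49).

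In the mitochondrial targets, Ak4 rose in TGFBRII_KO and Bnip3l changed in all 3 genotypes. Ak4, an adenylate kinase of the mitochondrial matrix (Entrez 11639, chromosome 4, 101416478 to 101467771), stood at 21.5, 28.9 and 8.51 CPM in unstimulated TGFBRII_KO, 62.6, 60.5 and 59.4 at 4 h and 49.9, 65.3 and 57.1 at 24 h. WT libraries held 5.08, 16.2, 24.3 and 33.1, then 7.52 and 53.9, then 10.7, 12.9, 13.4 and 28.2 CPM. CIS_KO libraries held 33.1, 24.1, 35.3 and 13.9, then 54.8, 28.5, 32.9 and 34.6, then 24.1, 27.6, 24.9 and 34.8 CPM. Treated TGFBRII_KO libraries were all above the unstimulated ones, and the WT and CIS_KO ranges overlapped. Its change in TGFBRII_KO was 1.62 ± 0.38 (adjusted p = 0.0054) at 4 h and 1.54 ± 0.38 (adjusted p = 0.29) at 24 h.

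Bnip3l, a receptor that marks mitochondria for removal by autophagy (Entrez 12177, chromosome 14, 66985238 to 67008877), rose at 24 h in WT and CIS_KO and fell at 4 h in TGFBRII_KO. In WT the unstimulated libraries held 174, 201, 226 and 217 CPM and the 24 h libraries 242, 274, 317 and 331. In CIS_KO the unstimulated values were 243, 167, 229.7 and 139 CPM and the 24 h values 318, 276, 269.8 and 320.3. TGFBRII_KO went from 229, 247 and 193 to 144, 157 and 149.8 at 4 h and 252, 265 and 276 at 24 h. None of these pairs of groups overlapped. The changes were 0.50 ± 0.12 (adjusted p = 0.0025), 0.63 ± 0.13 (adjusted p = 0.00050) and, at 4 h in TGFBRII_KO, -0.57 ± 0.15 (adjusted p = 0.014). The last was lost on leaving out each of 4 libraries (unstimulated replicate 1 or 2, 4 h replicate 1 or 3), at adjusted p up to 0.11. Its close relative Bnip3 was not called against unstimulated cells. Fam162a, a mitochondrial protein induced by hypoxia (Entrez 70186, chromosome 16, 36043844 to 36071561), fell at 24 h in WT from 168, 182, 178 and 214 CPM to 98.0, 125, 133 and 184, a change of -0.46 ± 0.15 (adjusted p = 0.021). In CIS_KO it went from 296, 236, 238 and 182 CPM to 195, 125, 159 and 212, -0.47 ± 0.15 (adjusted p = 0.020), or -0.26 (adjusted p = 0.18) with the depth covariate. Both pairs of ranges overlapped. Higd1a, which supports respiratory chain complexes, was not called against unstimulated cells. It went from 68.4, 56.6 and 53.5 CPM to 97.3, 72.9 and 90.5 at 24 h in TGFBRII_KO, without overlap, and from 59.7, 77.4, 68.7 and 88.4 to 52.4, 47.5, 56.6 and 74.2 in WT, with overlap.

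Of the oxygen sensing genes, Hif1a itself fell in WT and CIS_KO and did not pass the test in TGFBRII_KO. Hif1a (Entrez 15251, chromosome 12, 73901324 to 73947554) encodes the oxygen-regulated subunit, whose level is set mainly at the protein, which was not measured. WT libraries held 177, 202, 184 and 188 CPM unstimulated, 109 and 144 at 4 h and 122, 156, 137 and 154 at 24 h. CIS_KO libraries held 202, 187, 206 and 194, then 169, 152, 115 and 138, then 151, 169.9, 159 and 160.2 CPM. TGFBRII_KO libraries held 206, 235 and 208, then 249, 200.2 and 253, then 222, 204 and 200 CPM. All treated WT and CIS_KO libraries were below their unstimulated libraries, and the TGFBRII_KO groups overlapped. The WT change was -0.50 ± 0.14 (adjusted p = 0.018) at 4 h and -0.39 ± 0.10 (adjusted p = 0.0051) at 24 h, and the CIS_KO change -0.43 ± 0.12 (adjusted p = 0.0080) and -0.29 ± 0.11 (adjusted p = 0.045). In TGFBRII_KO it was 0.12 ± 0.11 (adjusted p = 0.60) and -0.05 ± 0.11 (adjusted p = 0.99). The CIS_KO call at 24 h ended under 12 of 15 alternatives (highest adjusted p 0.13), while the WT call at 24 h held under all 15.

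Vhl, the substrate receptor of the ligase that removes HIF-1α (Entrez 22346, chromosome 6, 113623994 to 113631634), went from 73.7, 73.7, 89.7 and 70.4 CPM to 97.7 and 115 at 4 h in WT, 0.49 ± 0.17 (adjusted p = 0.048). That call ended under 10 of 13 alternatives, with adjusted p from 0.026 to 0.55. Egln3, a hydroxylase that HIF-1 induces, had wide ranges: 40.5, 135 and 29.2 CPM in unstimulated TGFBRII_KO, 146, 163 and 105 at 4 h and 103, 196 and 134 at 24 h. Its log2 change at 4 h was 1.15 ± 0.41 (adjusted p = 0.059) in WT, 0.99 ± 0.38 (adjusted p = 0.11) in TGFBRII_KO and 0.83 ± 0.34 (adjusted p = 0.11) in CIS_KO, none of them called. Egln1, the main hydroxylase, was not called against unstimulated cells, with group means between 197 and 291 CPM. In TGFBRII_KO it held 247, 249.5 and 205 CPM unstimulated, then 235, 216 and 172, then 269, 298 and 306, and the 24 h libraries were above all others of the genotype (0.32 ± 0.18, adjusted p = 0.78).

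Among the switches of flux, Pfkfb3 rose at 4 h in each genotype. It makes fructose 2,6-bisphosphate, the strongest activator of phosphofructokinase (Entrez 170768, chromosome 2, 11471430 to 11554071). WT libraries held 45.8, 49.9, 55.3 and 60.8 CPM unstimulated, 60.1 and 96.5 at 4 h and 48.3, 47.5, 41.7 and 49.0 at 24 h. TGFBRII_KO libraries held 50.7, 44.6 and 43.7, then 107, 97.9 and 91.5, then 34.4, 56.5 and 50.01 CPM. CIS_KO libraries held 49.7, 35.2, 27.5 and 34.7, then 98.1, 49.9, 70.0 and 54.4, then 34.0, 44.5, 54.6 and 41.8 CPM. The TGFBRII_KO and CIS_KO groups at 4 h stood clear of their unstimulated groups, by the narrowest margin in CIS_KO, and in WT replicate 1 did not. The 4 h changes were 0.68 ± 0.22 (adjusted p = 0.038), 1.09 ± 0.19 (adjusted p = 0.00036) and 1.00 ± 0.21 (adjusted p = 0.0010); the WT call ended under 8 of 13 alternatives. At 24 h they were -0.18 ± 0.18 (adjusted p = 0.54), 0.02 ± 0.22 (adjusted p = 1.0) and 0.29 ± 0.22 (adjusted p = 0.35).

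Pfkfb4, a related enzyme, lay at 0 to 39 raw counts per library. In TGFBRII_KO it held 21.5, 15.7 and 18.2 CPM unstimulated, then 6.02, 11.5 and 9.14, then 22.6, 26.4 and 32.1, lowest at 4 h. Its 4 h change was -1.43 ± 0.61 in WT, -1.06 ± 0.48 in TGFBRII_KO and -1.08 ± 0.55 in CIS_KO, none of them called (lowest adjusted p 0.12). Pdk1 and Pdk3 are kinases that shut pyruvate dehydrogenase and so keep pyruvate from mitochondria. Pdk3 (Entrez 236900, chromosome X, 93764616 to 93832150) fell at 24 h in WT, from 133, 112, 140.0 and 129.8 to 112, 82.0, 109 and 99.4 CPM (-0.38 ± 0.11, adjusted p = 0.013). Its lowest unstimulated library and its highest at 24 h were nearly level. Pdk1 was not called against unstimulated cells, and in TGFBRII_KO it rose from 120.4, 121 and 109 CPM at 4 h to 192, 219 and 200 at 24 h, 0.80 ± 0.18 (adjusted p = 0.0035). Its unstimulated values there were 171, 178 and 108 CPM, which span those at 4 h.

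Of the 3 glucose and lactate transporters tested, Slc16a1 rose in TGFBRII_KO and fell in CIS_KO at 4 h. Slc16a1 encodes the lactate and pyruvate carrier MCT1 (Entrez 20501, chromosome 3, 104638664 to 104658462). WT libraries held 94.0, 73.7, 62.9 and 69.1 CPM unstimulated, 26.3 and 52.6 at 4 h and 33.6, 38.9, 50.7 and 43.0 at 24 h. CIS_KO libraries held 96.7, 94.6, 119.8 and 105, then 65.0, 40.4, 47.4 and 44.5, then 69.3, 56.0, 35.9 and 45.3 CPM. TGFBRII_KO libraries held 74.7, 82.0 and 80.2, then 135, 111 and 117, then 57.0, 96.7 and 60.7 CPM. Treated WT and CIS_KO libraries were all below their unstimulated libraries, and TGFBRII_KO libraries at 4 h were all above. It fell in CIS_KO at 4 h (-1.02 ± 0.20, adjusted p = 0.00036) and in CIS_KO and WT at 24 h (-0.98 ± 0.18, adjusted p = 0.00013 and -0.84 ± 0.19 (adjusted p = 0.0010)). The WT change at 4 h was -0.71 ± 0.26 (adjusted p = 0.069). In TGFBRII_KO it rose by 0.61 ± 0.18 (adjusted p = 0.028) at 4 h, a call lost under 6 of 13 alternatives, 5 of which left out 1 library.

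Slc2a3, the glucose transporter GLUT3 (Entrez 20527, chromosome 6, 122727809 to 122802363), fell at 24 h in WT from 207, 207, 171 and 224 to 137, 126, 143 and 165 CPM and in CIS_KO from 307, 258, 259 and 216 to 166, 136, 154 and 176. In TGFBRII_KO it went from 220.4, 257 and 215 to 239.8, 278 and 269 CPM. The WT and CIS_KO groups did not overlap, and the TGFBRII_KO groups did. The 24 h changes were -0.50 ± 0.11 (adjusted p = 0.00094), -0.72 ± 0.11 (adjusted p = 1.2e-05) and, in TGFBRII_KO, 0.18 ± 0.12 (adjusted p = 0.84), and CIS_KO also fell at 4 h (-0.49 ± 0.12, adjusted p = 0.0030). Slc16a3, the lactate exporter MCT4 (Entrez 80879, chromosome 11, 120948484 to 120959000), fell in CIS_KO at 24 h from 202, 132, 161 and 101 to 93.4, 61.4, 54.6 and 69.6 CPM without overlap, -1.06 ± 0.20 (adjusted p = 0.00020). In WT at 24 h its change was -0.43 ± 0.20 (adjusted p = 0.14).

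In upper glycolysis, Hk2 rose in TGFBRII_KO at 4 h and no enzyme rose in more than 1 genotype. Hk2 is the inducible hexokinase, which traps glucose in the cell (Entrez 15277, chromosome 6, 82725025 to 82774454). TGFBRII_KO libraries held 93.7, 136 and 135 CPM unstimulated, 318, 291 and 236 at 4 h and 122, 133 and 104 at 24 h. WT libraries held 184, 139.8, 103 and 89.8, then 33.8 and 168, then 119.5, 164, 183 and 187 CPM. CIS_KO libraries held 146, 159.5, 139 and 201, then 199, 138, 181 and 134, then 228, 142, 196 and 211 CPM. The TGFBRII_KO libraries at 4 h were above every other library of the series, and the 2 WT libraries at 4 h were far apart. Its change in TGFBRII_KO was 1.20 ± 0.24 (adjusted p = 0.0011) at 4 h, with a fall of 1.23 (adjusted p = 0.00078) from 4 h to 24 h. Pfkp, the platelet-type phosphofructokinase (Entrez 56421, chromosome 13, 6579874 to 6649060), fell in CIS_KO at 24 h from 318, 232, 273 and 211 to 181, 144, 142 and 179 CPM, -0.67 ± 0.12 (adjusted p = 0.00013). Those 2 groups did not overlap. The constitutive hexokinase Hk1 was not called against unstimulated cells; from 4 h to 24 h it fell in CIS_KO (-0.34 ± 0.11, adjusted p = 0.027) and rose in TGFBRII_KO (0.43 ± 0.12, adjusted p = 0.019). The CIS_KO fall was -0.21 (adjusted p = 0.15) with the depth covariate and was lost under 7 of 15 alternatives, and the TGFBRII_KO rise under 5 of 13. The TGFBRII_KO values of Hk1 were 176, 174 and 197 CPM unstimulated, then 153, 169.9 and 166, then 210.1, 224 and 223, and the 3 groups did not overlap.

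With depth in the model, 3 calls of glycolytic enzymes against unstimulated cells ended and 2 appeared. Aldoa, an aldolase (Entrez 11674, chromosome 7, 126795234 to 126800994), went from 330.4, 338, 262 and 376 CPM in unstimulated WT to 774 and 419.6 at 4 h, 0.82 ± 0.26 (adjusted p = 0.035), and 0.19 (adjusted p = 0.42) with the depth covariate. Tpi1, triosephosphate isomerase (Entrez 21991, chromosome 6, 124810586 to 124814158), went from 387, 291, 310.2 and 199.8 CPM in unstimulated CIS_KO to 224, 146, 201 and 261 at 24 h, -0.52 ± 0.17 (adjusted p = 0.027), and -0.19 (adjusted p = 0.34) with the covariate. Ldha, the lactate dehydrogenase subunit (Entrez 16828, chromosome 7, 46842274 to 46855627), went from 712, 506, 534 and 397 to 419, 224, 360.2 and 501 CPM in the same comparison, -0.52 ± 0.20 (adjusted p = 0.047), and -0.11 (adjusted p = 0.48) with it. The lowest CIS_KO values at 24 h of Tpi1 and Ldha were in the deepest library of the series (1403005 counts), and the groups overlapped. Gpi1, Pfkl, Aldoc, Pgk1, Pgam1, Eno1 and Pkm were not called against unstimulated cells in any genotype. With the depth covariate, Eno1 was called higher in CIS_KO at 24 h (0.56, adjusted p = 0.044) and Hk1 in CIS_KO at 4 h (0.28, adjusted p = 0.026). Pkm, pyruvate kinase, stood at 339, 339.6, 266 and 396 CPM in unstimulated WT and 755 and 389.6 at 4 h, a difference of 0.72 ± 0.25 (adjusted p = 0.060), and 0.07 (adjusted p = 0.78) with the depth covariate. Pgk1, phosphoglycerate kinase, stood at 35.6, 43.7, 33.5 and 52.5 and then 102 and 63.9 CPM, 0.89 ± 0.37 (adjusted p = 0.11), and 0.41 (adjusted p = 0.47) with it. For both, the higher 4 h value was that of the shallowest library.

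At 24 h, Slc2a3, Slc16a1, Hif1a, Ero1l and Fam162a were called lower in both WT and CIS_KO, and Bnip3l, Kdm3a and Kdm4b higher. In CIS_KO the calls of Hif1a, Kdm3a, Kdm4b and Fam162a were lost under 12, 11, 6 and 4 of 15 alternatives. In WT those of Fam162a and Ero1l were lost under 3 and 1 of 15. In WT, 4 of the 39 members rose and 6 fell (25.6%, against 21.1% of all genes). In CIS_KO, 3 rose and 9 fell (30.8%, against 24.0% of all genes), or 5 and 8 with library size alone. These shares lie near the background. Medians over the 39 were -0.03 and -0.18, beside 0.03 and 0.04 over all genes. Without CIS_KO unstimulated replicate 1, the shallowest of its group, 2 rose and 5 fell. The 24 h and 4 h comparisons share their unstimulated libraries.

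In TGFBRII_KO at 24 h most members stood above unstimulated cells, with little reaching the threshold gene by gene. All members were read in the same few libraries and can move together, so the counts below are not independent observations. A positive log2 change was found in 35 of 39 members (89.7%) and in 51.8% of all genes, with a median of 0.32 beside 0.01. Every 24 h library was above every unstimulated library for 26 of the 39 (66.7%), against 10.4% of all genes. At an unadjusted p under 0.05, 17 members were higher and none lower (43.6%), while 730 of all genes (7.10%) passed, 382 of them higher (3.72%). After adjustment only Kdm4b was called, 1 of 39 (2.56%), against 2 of 10275 genes (0.0195%). That call was lost on leaving out each of the 3 unstimulated libraries in turn, and on leaving out 24 h replicate 2 or 3. DESeq2 and the fit with a replicate block each called 0 members. The fit with the TGFBRII_KO 24 h and unstimulated groups alone called 14 members, all higher, among 73 higher and 133 lower of 9374 genes. Replicates in these groups lay close, with chi-square per degree of freedom of 0.772 to 0.999 at 24 h and 0.831 to 1.13 unstimulated. A value near 1 is what sampling noise alone gives. Across the unstimulated libraries, however, Xist ran from 22.9 to 77.8 CPM and the Y-linked sum from 187 to 388 CPM. The spread may still be partly technical, which was not tested.

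The positive differences covered several roles. All 5 secretory and collagen targets had an unadjusted p under 0.05, and every library at 24 h was above every unstimulated library in 5 of 5 mitochondrial targets, 5 of 5 enzymes of lower glycolysis and 6 of 8 of upper glycolysis. For lower glycolysis the median difference was 0.32 with 0 of 5 at an unadjusted p under 0.05, and the libraries compared were of like depth (777648 to 816633 and 789622 to 835586 counts). Eno1 stood at 81.0, 88.0 and 68.0 CPM unstimulated and 116, 114 and 118 at 24 h, a log2 difference of 0.56 ± 0.27 (unadjusted p = 0.051), or 0.58 with the depth covariate. Pfkl, the liver-type phosphofructokinase, stood at 95.0, 94.0 and 72.9 and 119.9, 159.6 and 154 CPM, a difference of 0.72 ± 0.21 (unadjusted p = 0.0013, adjusted p = 0.35). Bnip3 stood at 151, 159 and 80.2 and 178, 216 and 198 CPM, 0.60 ± 0.23 (unadjusted p = 0.014). Unstimulated replicate 3 stood low in the members: it held the lowest of the 3 unstimulated values for 30 of 39 (76.9%), against 32.6% of all genes. Without it, an alternative chosen after seeing the data, 34 of 39 members were still positive with a median of 0.22, and 7 were higher and 1 lower at an unadjusted p under 0.05; without 24 h replicate 2 those counts were 9 and 1. Without unstimulated replicate 3, every 24 h library was above every remaining unstimulated one for 26 of 39 (66.7%), against 17.1% of all genes. Under the other settings run, 33 to 35 members were positive. The myeloid sum, almost all Cd14, was 8.33 to 18.8 CPM at 24 h against 19.4 to 31.7 CPM, and T cell markers were 382 to 433 against 429 to 443 CPM; their part in the result was not tested.

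The responses of TGFBRII_KO and WT were compared as interaction terms. At 4 h, 3 of 39 members (7.69%) had a higher response in TGFBRII_KO and none a lower one, against 7.57% of all genes. These were Slc16a1 (1.33 ± 0.32, adjusted p = 0.0060), Hk2 (1.24 ± 0.38, adjusted p = 0.037) and Hif1a (0.62 ± 0.18, adjusted p = 0.029). With RLE size factors 3 were higher and 1 lower. With the depth covariate 3 were higher and 3 lower, the latter Mxi1 (-1.17, adjusted p = 0.018), Kdm3a (-0.65, adjusted p = 0.049) and Bnip3l (-0.64, adjusted p = 0.049). The Hk2 difference was lost under 8 of 19 alternatives and that of Hif1a under 9 (adjusted p 0.20 and 0.16 without the shallow WT 4 h library), and that of Slc16a1 held under all 19. Without TGFBRII_KO unstimulated replicate 1 or 4 h replicate 1 the count was 1, and without WT 4 h replicate 4 it was 5. For the members that rose at 4 h in each genotype the difference was 0.60 ± 0.44 (adjusted p = 0.46) for Ankrd37, 0.66 ± 0.44 (adjusted p = 0.41) for Vegfa, 0.41 ± 0.29 (adjusted p = 0.43) for Pfkfb3 and -0.54 ± 0.23 (adjusted p = 0.16) for Kdm3a. None of these 4 passed here, and of them Kdm3a passed with the depth covariate. A miss does not show that the responses were equal.

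At 24 h, 8 of 39 members (20.5%) had a higher response in TGFBRII_KO than in WT and none a lower one, against 10.8% of all genes. The difference was 2.11 ± 0.47 (adjusted p = 0.0019) for Ankrd37, 1.85 ± 0.56 (adjusted p = 0.026) for Ak4, 1.46 ± 0.37 (adjusted p = 0.0062) for P4ha2 and 1.10 ± 0.25 (adjusted p = 0.0023) for Ero1l. It was 0.91 ± 0.27 (adjusted p = 0.020) for Higd1a, 0.72 ± 0.22 (adjusted p = 0.027) for Fam162a, 0.68 ± 0.16 (adjusted p = 0.0038) for Slc2a3 and 0.55 ± 0.18 (adjusted p = 0.042) for Pfkp. By role they were 3 of 5 mitochondrial targets, 2 of 5 secretory and collagen targets, and 1 each of the nuclear targets, the transporters and upper glycolysis. Slc2a3, Ero1l, P4ha2 and Ankrd37 were called under every alternative run, while Pfkp was lost under 14 of its alternatives. The median difference over the 39 was 0.39, beside -0.02 over all genes. Without WT 24 h replicate 2 or TGFBRII_KO unstimulated replicate 3 the count was 4, and without WT unstimulated replicate 4 or TGFBRII_KO 24 h replicate 2 or 3 it was 5.

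**Figure D4:**
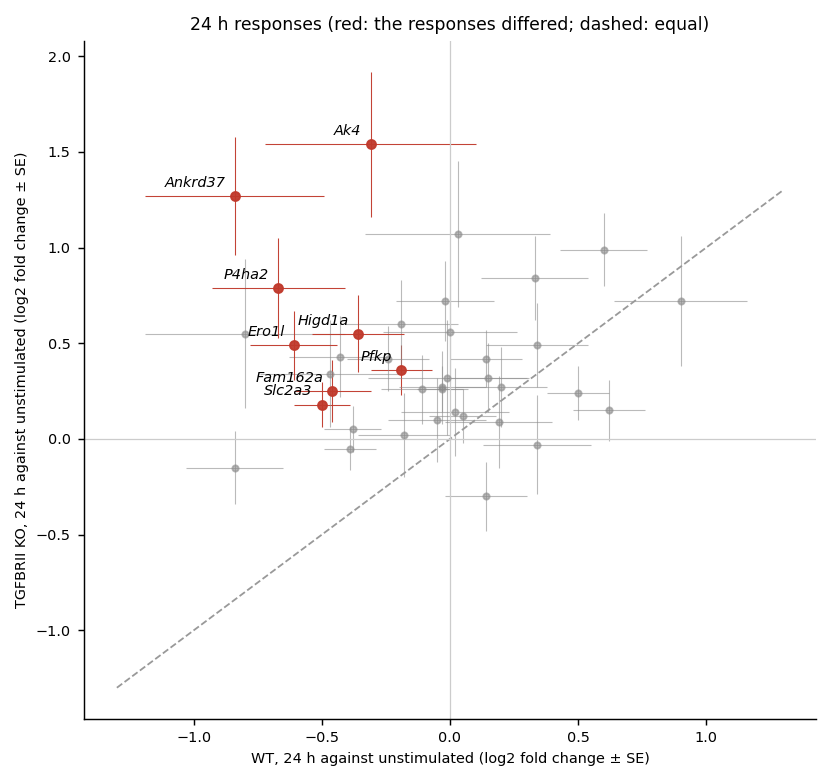
Log2 fold change ± SE at 24 h against unstimulated cells in TGFBRII_KO (vertical axis) and in WT (horizontal axis) for the 39 members tested; the dashed line marks equal responses and red points the 8 members whose responses differed at an adjusted p under 0.05. All 8 red points lie above the line, with Ankrd37 at 1.27 in TGFBRII_KO and -0.84 in WT.

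From 4 h to 24 h the calls were counted in each genotype, and no test compared the genotypes on this step. WT had only 2 libraries at 4 h, so the counts are not like for like. In WT, 0 members were higher and 3 lower (7.69%, against 7.57% of all genes): Ankrd37, Mxi1 (-1.06 ± 0.23, adjusted p = 0.0036) and Pfkfb3 (-0.86 ± 0.23, adjusted p = 0.015), all of them lost without WT 4 h replicate 4. The WT count was 5 without WT 4 h replicate 1 or 4 and 8 without WT 24 h replicate 4. In TGFBRII_KO, 7 were higher and 5 lower (30.8%, against 8.17%). Those that fell were Vegfa (-1.17 ± 0.27), Pfkfb3 (-1.07 ± 0.19), Hk2, Slc16a1 (-0.77 ± 0.18) and Ankrd37, and those that rose were Hk1, Pdk1, Pfkfb4 (1.60 ± 0.45), Bnip3 (0.72 ± 0.23), Bnip3l (0.81 ± 0.15), P4ha2 (0.81 ± 0.26) and Kdm4b (0.60 ± 0.18). In CIS_KO, 1 was higher and 8 lower (23.1%, against 15.4%), or 3 and 7 with library size alone, which moved the median of all genes from 0.02 to 0.12. Bnip3l rose (0.51 ± 0.13), and Ankrd37, Ero1l (-0.70 ± 0.17), Pfkp (-0.49 ± 0.13), Slc16a3 (-0.77 ± 0.21), Pfkfb3 (-0.71 ± 0.19), Bhlhe40, Hk1 and Aldoc fell. Aldoc, an aldolase, was at -0.23 (adjusted p = 0.23) with the depth covariate. Leaving out TGFBRII_KO 4 h replicate 1 or 3, or 24 h replicate 2 or 3, took the TGFBRII_KO count to between 5 and 7. With the depth covariate 16 were higher and 5 lower in TGFBRII_KO, the added ones including Aldoc (0.49), Eno1 (0.87), Tpi1 (0.39), Gpi1 (0.32) and Pgk1 (0.71).

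Unstimulated TGFBRII_KO and WT cells differed in 0 of 39 members (0%, against 0.146% of all genes) by edgeR and by DESeq2, with 1 member, Bhlhe40, at an unadjusted p under 0.05. Unstimulated CIS_KO cells held more of 6 members than WT and less of none (15.4%, against 6.15% of all genes). These were Ero1l (0.64 ± 0.16, adjusted p = 0.022), Slc16a3 (0.65 ± 0.19, adjusted p = 0.038), Ldha (0.63 ± 0.19, adjusted p = 0.046), Bhlhe40 (0.57 ± 0.16, adjusted p = 0.037), Pfkp (0.42 ± 0.12, adjusted p = 0.035) and Slc2a3 (0.35 ± 0.11, adjusted p = 0.048). The CIS_KO libraries were the shallower, and with the depth covariate none was called: Ero1l was at 0.48 (adjusted p = 0.19) and Ldha at 0.12 (adjusted p = 0.66). Leaving out WT replicate 3, or CIS_KO replicate 1 or 3, also left 0, leaving out WT or CIS_KO replicate 2 left 1, and leaving out CIS_KO replicate 4 gave 12. The myeloid sum, almost all Cd14, was 25.5 to 30.4 CPM in CIS_KO and 9.99 to 21.6 CPM in WT, and Xist was at 0 in these CIS_KO libraries; the part of either was not tested.

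The responses of CIS_KO and WT differed in 0 of 39 members at 4 h (0% of all genes, too) and in 0 of 39 at 24 h (against 1.33% of all genes), by edgeR and by DESeq2. At an unadjusted p under 0.05, 1 member differed at 4 h (Ldha, -0.64 ± 0.31, or -0.08 with the depth covariate) and 3 at 24 h (Pfkp, -0.48 ± 0.17, Slc16a3, -0.63 ± 0.29, and Bhlhe40, -0.47 ± 0.23). Hif1a differed by 0.07 ± 0.18 (4 h) and 0.10 ± 0.15 (24 h), and Slc16a1 by -0.31 ± 0.34 and -0.14 ± 0.27, none of which passed.

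Another 57 genes of these pathways were counted in the same way, and 45 of them were tested. At 4 h, 4 rose and 5 fell in WT (20%, against 11.9% of all genes), 2 rose and 1 fell in TGFBRII_KO (6.67%, against 8.02%), and 5 rose and 3 fell in CIS_KO (17.8%, against 14.1%). At 24 h the counts were 3 and 7 in WT (22.2%, against 21.1%), 0 and 0 in TGFBRII_KO, and 3 and 9 in CIS_KO (26.7%, against 24.0%). Narf, a nuclear prelamin-binding protein, rose at 4 h in each genotype, by 1.40 ± 0.20 in WT, 1.18 ± 0.18 in TGFBRII_KO and 1.12 ± 0.17 in CIS_KO. Epas1, which encodes HIF-2α, went from 26.0 ± 4.84 CPM (SD, n = 4) in unstimulated WT to 5.94 ± 3.29 (n = 4) at 24 h, -2.10 ± 0.45 (adjusted p = 0.00059), and fell by 1.49 in CIS_KO. In TGFBRII_KO it stood at 31.3 ± 15.8 and 26.9 ± 10.9 CPM (n = 3 each), and its 24 h response differed from that of WT by 1.87 ± 0.60 (adjusted p = 0.038). Kdm6b, a histone H3 demethylase, rose at 4 h in WT (1.52 ± 0.25) and CIS_KO (1.17 ± 0.21), and its TGFBRII_KO response was lower than that of WT by 1.27 at 4 h (adjusted p = 0.017). Rpia, of the pentose phosphate pathway, fell in WT and CIS_KO at both times. Hilpda, a lipid droplet protein, was called higher at 4 h in TGFBRII_KO (0.55 ± 0.17). Its WT change was much the same (0.53 ± 0.20, adjusted p = 0.083). Car12, a carbonic anhydrase with 0 to 14 counts per library, fell in WT at 4 h (-2.76 ± 0.92) and 24 h (-1.58 ± 0.51) and in CIS_KO at 24 h (-1.41 ± 0.52).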

How the data were processed

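RNA of sorted mouse NK cells was made into libraries with a directional kit, per the labels' protocols. The authors deposited 1 table of raw counts per gene with Entrez identifiers; mm10 and the tools Subread, featureCounts, Trimmomatic, SAMtools, Picard and FastQC are named in the submitters' processing notes. The strand setting, the treatment of multi-mapping reads and any removal of duplicate reads were not given in the sources used here, and either can move the counts of abundant or duplicated genes. Of 27179 identifiers, 25275 had a RefSeq symbol, and those without held 0.958% of counts.

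Counts were tested with edgeR 4.0.16 (R 4.3.3): filterByExpr on the 9 groups (10275 genes), TMM scaling, 1 quasi-likelihood fit over all 31 libraries, 15 comparisons, and adjustment over all genes. One spread was shared by all groups, since only 2 WT libraries were at 4 h. A standard error is the absolute log2 change over the root of F. Alternatives were RLE size factors, library size alone, no low-count filter, a depth covariate, a replicate block, only the groups compared, DESeq2 1.42.0 and leaving out each library.

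Every column of counts in the table was mapped to a library. The members and lists were chosen with earlier results of these data known. Hif1a, Vhl, Egln1 and Egln3 are given by value, as are members called against unstimulated cells or among the up to 4 smallest p of their role list; the others by range and count, the other pathway genes by how often they were called (up to 6). Members named outside this rule, among them the examples for TGFBRII_KO at 24 h, were chosen after their values were seen. Same-numbered libraries did not deviate together throughout (correlation above 0.1 in 1 of 8 WT, 4 of 9 TGFBRII_KO and 2 of 12 CIS_KO pairs), so numbers were not taken as pairs. In TGFBRII_KO, though, every same-numbered pair was positive, with a median of 0.0961 against -0.054 for pairs of unlike number. Whether its numbers mark a shared source was not tested. In 9 of 40 replicate pairs counts differed by less than sampling noise (chi-square per degree of freedom under 1, lowest 0.772). These included every TGFBRII_KO 24 h pair (0.999, 0.795 and 0.772) and unstimulated TGFBRII_KO replicate 1 against 2 (0.872) and against 3 (0.831). Among the 9 was the pair of unstimulated WT replicates 2 and 4 (0.893), which held 46 and 0 counts of Ddx3y. Ddx3y in the other pairs is not given here, and all libraries were kept apart.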

Additional observations from a re-analysis of the deposited data

Results flagged for a closer look

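The TGFBRII_KO response differed from the WT response, by interaction terms of edgeR's quasi-likelihood fit, in 11 cases. At 4 h the log2 differences were 1.33 for Slc16a1, 1.24 for Hk2 and 0.62 for Hif1a. At 24 h they were 2.11 for Ankrd37, 1.85 for Ak4, 1.46 for P4ha2, 1.10 for Ero1l, 0.91 for Higd1a, 0.72 for Fam162a, 0.68 for Slc2a3 and 0.55 for Pfkp. These 11 were higher in TGFBRII_KO. The share of members called was 7.69% at 4 h and 20.5% at 24 h, against 7.57% and 10.8% of all genes. With the depth covariate, Mxi1 (-1.17), Kdm3a (-0.65) and Bnip3l (-0.64) were called lower in TGFBRII_KO at 4 h. Hk2 was lost under 8 of 19 alternatives, Hif1a under 9 of 19 and Pfkp under 14 of 21.

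A single library stood apart from the other 3 of its group in 6 of 195 group values tested (39 members in 5 groups of 4 libraries), where chance alone marks about 1 in 20. Slc16a3 was at 132 CPM in CIS_KO 4 h replicate 3 against 112 to 114 in the others. Pdk3 was at 124 CPM in CIS_KO 24 h replicate 4 against 105 to 108. In WT unstimulated replicate 3, Vhl was at 89.7 CPM against 70.4 to 73.7, and Kdm4b at 46.9 CPM against 31.8 to 33.1. Higd1a was at 54.1 CPM in CIS_KO unstimulated replicate 4 against 96.5 to 99.4. Ak4 was at 28.2 CPM in WT 24 h replicate 4 against 10.7 to 13.4.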

How the results depend on the processing

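Of the 89 member calls in all comparisons, 40 held under every alternative run and 54 under every alternative that kept all libraries; none reversed. DESeq2 ended 21 of the 89, the replicate block 19, the depth covariate 16, fitting only the groups compared 14, library size alone 10, no low-count filter 8 and RLE size factors 2.

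Counts of called members moved as follows, and the cause was not tested. With no low-count filter they were 16 for WT at 4 h, 12 for WT 24 h against 4 h, 8 for TGFBRII_KO at 24 h, 16 for CIS_KO 24 h against 4 h, 1 for unstimulated TGFBRII_KO against WT, 10 and 13 for the TGFBRII_KO response differences at 4 h and 24 h, and 13 for unstimulated CIS_KO against WT. With the depth covariate they were 6 for WT 24 h against 4 h, 21 (16 higher, 5 lower) for TGFBRII_KO 24 h against 4 h, 6 (3 higher, 3 lower) and 13 for the response differences, and 0 for unstimulated CIS_KO. With only the groups compared they were 1, 14, 21, 7 and 11 for WT 24 h against 4 h, TGFBRII_KO at 24 h, TGFBRII_KO 24 h against 4 h, CIS_KO at 24 h and unstimulated CIS_KO. Library size alone gave 0 for TGFBRII_KO at 24 h and 3 for unstimulated CIS_KO, and DESeq2 gave 0 for TGFBRII_KO at 24 h.

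The replicate block gave 5 for WT at 4 h, 0 for TGFBRII_KO at 24 h, 1 for the TGFBRII_KO response difference at 4 h and 3 for unstimulated CIS_KO; the other counts stayed within 1.5 times. Same-numbered correlations ran from -0.388 to 0.113 in WT, 0.0152 to 0.198 in TGFBRII_KO and -0.232 to 0.250 in CIS_KO. In WT and CIS_KO they lay on both sides of 0, so a call lost there under the block is not read as a weaker effect. In TGFBRII_KO all lay above 0, and the loss of its 24 h call under the block stands as a limit.

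Leaving out 1 library gave 6 to 10 calls for WT at 4 h, 8 to 12 at 24 h and 3 to 8 for 24 h against 4 h. The ranges were 5 to 7, 0 to 1 and 5 to 11 in TGFBRII_KO, and 7 to 10, 7 to 13 and 7 to 12 in CIS_KO. Unstimulated TGFBRII_KO against WT stayed at 0, its response differences were 1 to 5 and 4 to 12, unstimulated CIS_KO gave 0 to 12, and both CIS_KO response differences stayed at 0. Where 1 WT library at 4 h remained, it was assumed to vary like the other groups.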
